A study of Arabidopsis thaliana with 3 samples.

Results

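Of the polyubiquitin genes of Arabidopsis thaliana, 5 were followed in a table of alternative splicing events from first true leaves. These were UBQ3 (AT5G03240), UBQ4 (AT5G20620), UBQ10 (AT4G05320), UBQ11 (AT4G05050) and UBQ14 (AT4G02890). They were taken by gene identity, and all 5 had a listed event. Together they held 92 of the 62849 nuclear events, in 5 of 14457 nuclear genes. RNA came from pooled first true leaves of untreated Col-0, the reference accession, and was sequenced in 3 libraries of 1 group, grown at 1 temperature under 1 light regime. There is thus no second condition, and the comparisons are between libraries, between the genes and with the other nuclear genes. Nothing in the labels says that the 3 pools came from separate plantings, so p-values measure only the spread between these 3 samples, and it may be technical.

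Ubiquitin is a small protein that is attached to other proteins, most often to mark them for breakdown by the proteasome. Polyubiquitin genes encode it as a chain of units joined head to tail without spacers, which ubiquitin-specific proteases cut into single ubiquitins after translation. The number of units therefore sets how many ubiquitins 1 translated chain yields, and the loss of a whole unit leaves the reading frame intact. The genes are expressed throughout the plant, and the UBQ10 promoter and leader are widely used to drive transgenes.

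The reference sequence bears out the name of the family. UBQ10 (chromosome 4, plus strand, coding sequence 2718559 to 2719932) has 6 units of 76 codons each, UBQ4 (chromosome 5, minus strand, 6973315 to 6974463) has 5, UBQ3 (chromosome 5, minus strand, 771976 to 772896) and UBQ14 (chromosome 4, minus strand, 1278747 to 1279664) have 4 each, and UBQ11 (chromosome 4, minus strand, 2588271 to 2588960) has 3. All 22 units encode the same 76 residues, so the genes differ in codons and not in the ubiquitin they make. At the nucleotide level, units of 1 gene were 78.5% (lowest pair, UBQ4) to 93.0% (highest pair, UBQ10) identical. The longest stretch shared without a mismatch by a pair of units in register was 62 nt in UBQ10, 29 nt in UBQ3 and in UBQ14, 26 nt in UBQ4 and 23 nt in UBQ11.

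A leader intron ends directly before the start codon in all 5 genes. It spans chromosome 4, 2718255 to 2718558 (304 nt) in UBQ10, chromosome 4, 2588961 to 2589294 (334 nt) in UBQ11, chromosome 4, 1279665 to 1279961 (297 nt) in UBQ14, chromosome 5, 772897 to 773271 (375 nt) in UBQ3 and chromosome 5, 6974464 to 6974848 (385 nt) in UBQ4, so it interrupts the 5' untranslated region. The acceptors are shown because all events of the family outside the coding units concern this intron, by its retention, its splicing or a shifted site. Each line gives the last 20 bases of the intron and the first 9 of the exon in the direction of transcription, read from TAIR10.1, with the start codon in capitals.
UBQ10 acceptor (chr4:2718539-2718567, plus strand): tgagtttttctgattaacagATGcagatc
UBQ11 acceptor (chr4:2588952-2588980, minus strand): tcggtttttctgattaacagATGcagatc
UBQ14 acceptor (chr4:1279656-1279684, minus strand): cagttttttgtgaattacagATGcagatc
UBQ3 acceptor (chr5:772888-772916, minus strand): gttctattgttttatttcagATGcaaatc
UBQ4 acceptor (chr5:6974455-6974483, minus strand): cttgctctcttccttcgcagATGcaaatt
UBQ10 and UBQ11 differed at 2 of these 29 bases, UBQ10 and UBQ14 at 7, and UBQ3 and UBQ4 at 12. The second codon is CAG in UBQ10, UBQ11 and UBQ14, which places another AG 6 bases after the first, and CAA in UBQ3 and UBQ4.

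The genes differed widely in how many reads were counted at the leader junction, a count that does not depend on gene length. It includes reads of the retained form. The scale is 1000000 reads at the 46303 nuclear junctions between neighbouring exons that carry a listed event. On it, UBQ10 had 584, 618 and 599 in replicates 1, 2 and 3 (mean 601 ± 17.0, SD, n = 3). UBQ11 had 271, 295 and 346, and UBQ3 had 131, 212 and 155. UBQ4 was lowest with 24.9, 25.04 and 27.2. UBQ14 is numbered in the table as 1 exon, so only its spliced leader reads could be used, with 180, 179 and 208 on the same scale. These leave out retained reads, unlike the totals of the other genes. The ranges of UBQ14 and UBQ3 overlapped, while those of UBQ10, UBQ11 and UBQ4 lay apart from each other and from the rest. The junction reads behind these values ranged from 830 (UBQ4, replicate 2) to 37534 (UBQ10, replicate 3). The junctions of the scale held 34587113, 33141594 and 62624801 reads in replicates 1, 2 and 3. Junctions without a listed event are not counted in these totals. Reads of near-identical copies cannot always be placed. Of the 50-base words of the coding sequence, 23.1% in UBQ11, 14.3% in UBQ14, 10.7% in UBQ10, 2.98% in UBQ3 and 2.36% in UBQ4 also occur in another of the 5 genes. Read length and the treatment of reads with several positions are not stated in the sources used here, and values of coding-region events are uncertain to that extent.

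Retention of the leader intron (class IR) was listed for 4 genes, and it was highest on average in UBQ11 and UBQ3. Its level is the share of junction reads given to the retained form; the counting rule for intron reads is not stated in the labels, so the level depends on it. In UBQ11, 2.96%, 2.80% and 7.91% of junction reads were retained ones in replicates 1, 2 and 3 (278, 274 and 1715 reads). Replicate 3 stood apart, and the others lay close together. UBQ3 had 5.40%, 2.33% and 4.60%, with replicate 2 the lowest. UBQ10 had 1.34%, 1.14% and 1.96%, with replicate 3 the highest, on 271, 233 and 737 retained reads. UBQ4 had 0.698%, 1.20% and 0.881%, resting on only 6, 10 and 15 retained reads. As means ± SD (n = 3) the order was UBQ11 (4.56% ± 2.90), UBQ3 (4.11% ± 1.59), UBQ10 (1.48% ± 0.431) and UBQ4 (0.928% ± 0.257). In every library UBQ11 and UBQ3 both exceeded UBQ10, while their own order changed between libraries, and in replicate 2 UBQ4 exceeded UBQ10. With 3 libraries an exact two-sided sign-flip test of a pair of genes cannot go below p = 0.25, so no test between genes was made.

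**Figure D1:**
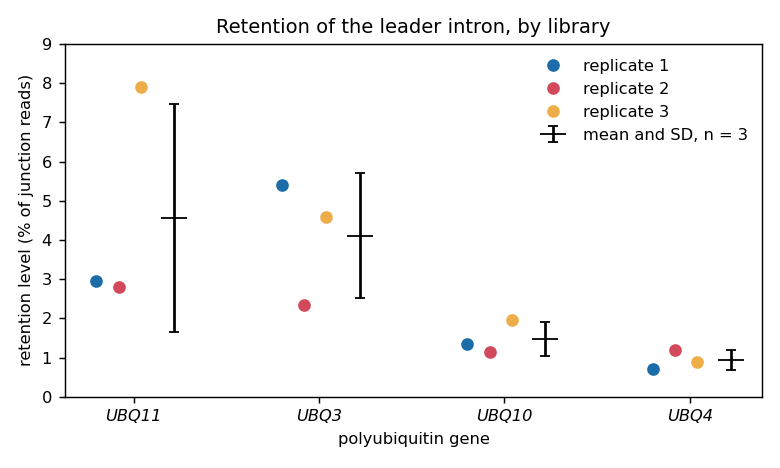
Retention of the leader intron as a percentage of junction reads (y axis) in 4 polyubiquitin genes (x axis); points are the 3 libraries and bars the mean and SD. UBQ11 reached 7.91% in replicate 3 against 2.96% and 2.80% in the other libraries, and UBQ10 and UBQ4 stayed below 2%.

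Set against listed retained introns at junctions above the same minimum of reads, the means of UBQ11 and UBQ3 lay above the upper quartile. Those of UBQ10 and UBQ4 lay below it. For UBQ11 the distance came from replicate 3, without which its mean was 2.88%. The median over all 43194 retained introns of nuclear genes was 4.19% (of the mean over libraries), and over the 8987 at junctions with at least 500 reads in each library, a condition all 4 genes met, it was 1.01% and the upper quartile 2.87%. Of those deep introns, 82.9% lay below UBQ11, 81.3% below UBQ3, 59.4% below UBQ10 and 47.5% below UBQ4. Introns without a retained read in some library are not listed, so these are no ranks among all introns at deep junctions. Among the 2029 deep introns between exons 1 and 2 the median was 1.45%, and 77.0%, 74.9%, 50.3% and 38.5% lay below the same genes. The upper quartile of that set was 4.114%, so UBQ3 (4.109%) was not above it.

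Of the 4 retained introns, 3 differed between the libraries by more than read-counting error, as did the leader splice of UBQ14. Homogeneity was tested by chi-square, with p-values adjusted over all nuclear events by the Benjamini-Hochberg method. It called 4 of the 92 polyubiquitin events, against 10.1% of all nuclear events. The calls were the retained introns of UBQ11 (chi-square adjusted p = 1.05e-103), UBQ3 (2.61e-16) and UBQ10 (2.27e-13) and the spliced leader of UBQ14 (3.91e-12). Among retained introns of nuclear genes 12.1% were called, and at the deep junctions 24.8%. Of the 82 CRIN events of the family, described further on, 1 was called, against 6.41% of nuclear CRIN events. Each of the 4 calls rested on 1 library. Without replicate 3 the mean level was 2.88% in UBQ11 (chi-square adjusted p = 0.830) and 1.24% in UBQ10 (0.321), without replicate 2 it was 4.996% in UBQ3 (0.235), and without replicate 1 it was 27.3% in UBQ14 (0.120). The test takes reads as independent and compares these libraries with each other, so a call may be ordinary variation between pools. Retention in UBQ11 and UBQ10 was highest in replicate 3 and in UBQ3 in replicate 1. Of the 5241 called retained introns of nuclear genes, 58.7% were highest in replicate 1 and 24.5% in replicate 3. The UBQ14 event, also highest in replicate 3, counts spliced reads and is no retention level, so it has no place in that comparison.

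In UBQ14 the leader splice is entered as a span removed from within exon 1 (class CRIN). It had 6228, 5947 and 13030 reads, which were 25.1%, 26.8% and 27.8% of the gene-wide reads in replicates 1, 2 and 3 (26.6% ± 1.39, SD, n = 3). That percentage is no splicing efficiency, since its total counts reads along the whole gene. In the genes with a junction total, all leader junction reads, retained ones included, came on average to 34.9% of gene-wide reads in UBQ11, 18.6% in UBQ4 and 13.6% in UBQ10. A second UBQ14 event kept the leader donor and used an acceptor 17 nt upstream of the usual one (280 nt removed, 1279682 to 1279961), with 12, 6 and 8 reads. Another, listed at 1279667 to 1279963, is the leader intron moved by 2 nt and leaves exactly the same spliced sequence; it had 3, 2 and 6 reads.

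Shifted leader sites were rare in every gene. In UBQ10 an acceptor 6 nt downstream (2718559 to 2718564 removed) had 9, 11 and 17 reads, or 0.0445%, 0.0537% and 0.0453% of junction reads. In UBQ11 the same 6 bases (2588955 to 2588960) were removed in 4, 3 and 5 reads, or 0.0427%, 0.0307% and 0.0231%. Both remove the start codon and the following CAG shown above. UBQ10 levels exceeded those of UBQ11 in each library, by little in replicate 1. No such event was listed for UBQ14, which has the CAG as well, nor for UBQ3 and UBQ4, whose second codon lacks the AG. The leaders of these 3 genes had fewer reads than those of UBQ10 and UBQ11, events need at least 1 read in each library to be listed, and the part of the second codon was not tested. In UBQ3 a donor that adds 173 nt (773099 to 773271), which ends exon 1 in an annotated transcript, had 20, 19 and 28 reads, or 0.442%, 0.270% and 0.288%, and one that adds 100 nt (773172 to 773271) had 2, 5 and 1 reads. In UBQ11 a donor that adds 149 nt (2589146 to 2589294), also annotated, had 1, 8 and 5 reads (chi-square adjusted p = 0.0935). The event of UBQ10 with both sites shifted, by 2 nt each, had 8, 10 and 26 reads. It leaves the same spliced sequence as the usual leader intron, since the 2 bases before the donor equal the last 2 of the intron.

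Inside the coding exons, many listed spans had the length of whole ubiquitin units. Of 82 CRIN events in the 5 genes, 45 (54.9%, Wilson 95% interval 44.1 to 65.2%) had a length of a whole number of 76-codon units, against 3 of 2711 (0.111%) in all other nuclear genes. Spans of whole repeats of other lengths were not looked for in the other nuclear genes. The 82 include the leader events of UBQ14, which lie outside the units. The interval takes events as independent, although 65 lie in UBQ10 and 22 are 10 products under several coordinates. Of the 45, 34 removed 1 unit, 9 removed 2, 1 removed 3 and 1 removed 4. Most lay in UBQ10, with 38 of its 65 events, followed by 5 of 6 in UBQ11 and 2 of 9 in UBQ14. Both events of UBQ4 had 167 nt, and UBQ3 had no CRIN event. The gene-wide reads behind these lists were 151576, 151507 and 271799 in UBQ10, 28265, 27987 and 59317 in UBQ11, 24831, 22165 and 46813 in UBQ14, and 4813, 4579 and 8656 in UBQ4. The genes with more reads thus tended to have more listed spans, and the part of depth in these counts was not tested. The 3 other genes with such a length were NUDT12 (AT1G12880), AT4G23000 and AT5G57170, and each of those spans ran from GT to AG.

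**Figure D2:**
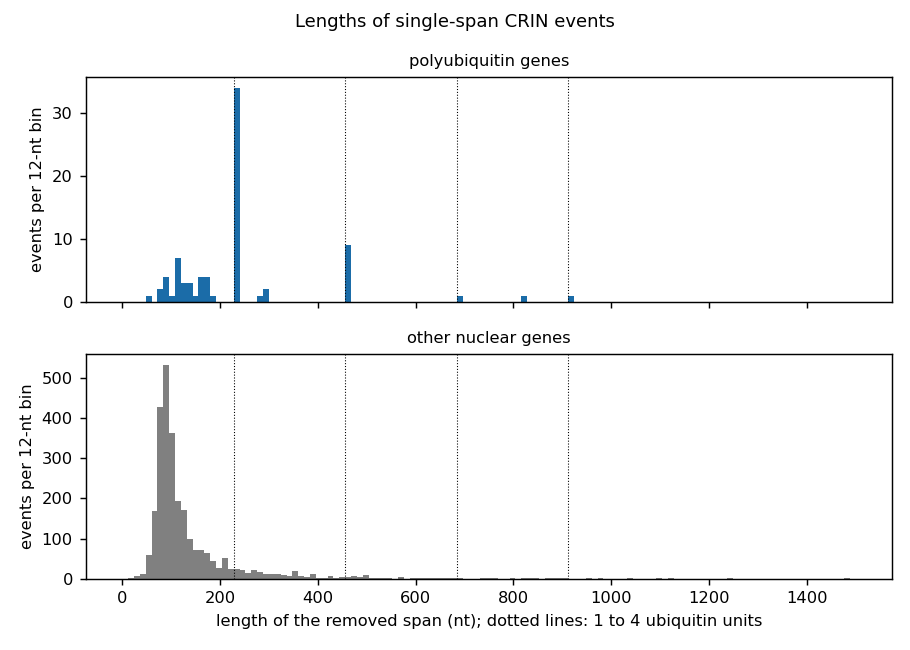
Lengths of single-span CRIN events (x axis, nt) as events per bin (y axis), for the polyubiquitin genes (top) and the other nuclear genes (bottom); dotted lines mark 1 to 4 ubiquitin units. The polyubiquitin genes had 34 spans of exactly 1 unit and 9 of exactly 2, whereas spans of the other genes had a median of 99 nt and no comparable peak at those lengths.

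Although numerous, these spans carried very few reads. In UBQ10 all 65 events together had 226, 202 and 298 reads, which were 0.149%, 0.133% and 0.110% of gene-wide reads (0.131% ± 0.0199, SD, n = 3). Those of whole units had 129, 111 and 170 reads, so they took 57.1%, 55.0% and 57.0% of the CRIN reads, a share that hardly differed between libraries. The summed UBQ10 level was called in the homogeneity test over genes (chi-square adjusted p = 0.0264), which called 7.91% of 1669 nuclear genes; it was highest in replicate 1 and lowest in replicate 3. That call was lost without replicate 1 (0.121%, chi-square adjusted p = 0.407) and without replicate 3 (0.141%, 0.615). In UBQ11 the summed CRIN reads were 8, 15 and 22 (0.0283%, 0.0536% and 0.0371%, chi-square adjusted p = 0.612), and in UBQ4 5, 4 and 6 (0.104%, 0.0874% and 0.0693%, chi-square adjusted p = 0.929). Whole-unit spans of UBQ14 had 13, 5 and 23 reads in all. No whole-unit span of any gene reached 10 reads in each library. As shares of gene-wide reads, whole-unit spans came to 0.0736% ± 0.0113 in UBQ10, 0.0413% ± 0.0164 in UBQ14 and 0.0339% ± 0.0113 in UBQ11 (SD, n = 3).

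The spans of UBQ10 covered the coding sequence from the first to the last unit. All 65 began and ended within the 6 units. As listed, whole-unit spans began in unit 1 in 9 cases, in unit 2 in 11, in unit 3 in 5, in unit 4 in 9 and in unit 5 in 4. Of these 38 spans, 32 can be moved by 10 bases or more with the same product, as described further on. Their first bases thus depend on how they were placed. The 27 spans of other lengths began mostly in units 3 and 4 (9 and 10). All but 1 of these were shorter than a unit, the median was 117 nt, and 11 of the 27 had a length divisible by 3. The commonest first base as listed was number 227 of a unit, counted from 1 at its start codon. There 8 spans began, with 46, 40 and 58 reads in all. The product of the one at 2719469 to 2719696 was also listed from base 214 of unit 4 and from base 9 of unit 5. Base 49 and base 104 followed with 4 spans each, as did base 132. Base 227 is the G of a GT that ends each of units 1 to 5, directly before the ATG of the next, so the junctions between units are shown here with that GT in capitals.
UBQ10 units 1 and 2 (chr4:2718775-2718798, plus strand): ctccgtggtgGTatgcagattttc
UBQ10 units 2 and 3 (chr4:2719003-2719026, plus strand): ctccgtggtgGTatgcagattttc
UBQ10 units 3 and 4 (chr4:2719231-2719254, plus strand): ctgcgtggagGTatgcagatcttc
UBQ10 units 4 and 5 (chr4:2719459-2719482, plus strand): ctgcgtggagGTatgcagatcttc
UBQ10 units 5 and 6 (chr4:2719687-2719710, plus strand): ctgcgtggagGTatgcagatcttc
Spans that began at this GT were listed at the end of units 1 to 4, with 2 at each. In the last 3 of these windows the bases before the GT are AG. UBQ11 also had a span that began at base 227 of its unit 1 (2588507 to 2588734, 1 unit long, GT to AG), with 1, 4 and 8 reads.

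**Figure D3:**
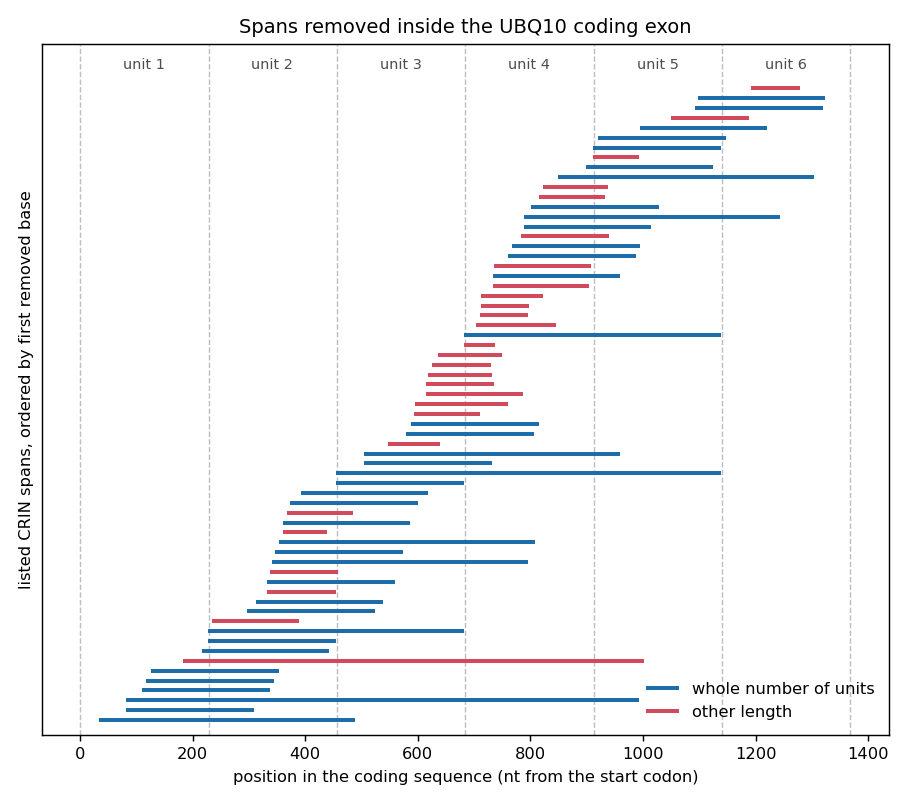
Spans removed inside the coding exon of UBQ10, 1 line per listed event, ordered by first removed base; the x axis is the position in nt from the start codon and dashed lines mark the unit borders. The 38 whole-unit spans (blue) are spread over the units, and the 27 of other lengths (red) gather in units 3 and 4.

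As listed, the CRIN event of UBQ10 with the most reads was not a whole unit, although adding up spans of 1 product gave a tie, described further on. It removed 56 nt from the GT at the end of unit 3 to an AG in unit 4 (2719241 to 2719296) in 19, 19 and 14 reads, or 0.0125%, 0.0125% and 0.00515% of gene-wide reads (chi-square adjusted p = 0.0978). Replicates 1 and 2 were level, and replicate 3 was lower. The next was a span of 114 nt (2719194 to 2719307) with 14, 11 and 16 reads, which begins with CA and ends with AC. Spans of 111 nt (2719271 to 2719381) and 122 nt (2719173 to 2719294) had 5, 8 and 15 and 7, 9 and 11 reads, and neither ran from GT to AG. The whole-unit span with the most reads removed 1 unit (2718904 to 2719131) in 11, 9 and 14 reads, or 0.00726%, 0.00594% and 0.00515%. Spans of 1 unit at 2719469 to 2719696 and 2719063 to 2719290, both from GT to AG and both annotated as introns in RefSeq, had 11, 6 and 9 and 4, 9 and 11 reads. The longest, 912 nt or 4 units (2718640 to 2719551, GC to AG), had 3, 1 and 1 reads and is annotated as well. Of these 4 whole-unit spans, the one at 2719063 had its lowest level in replicate 1, and the other 3 had their highest there.

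The ends of whole-unit spans lie in sequence that both units share, so the removed piece can be moved by several bases without any change in what is left. This is shown for the leading 56-nt span and the leading whole-unit span of UBQ10, with the bases that are identical at both ends in capitals. In each window of 28 bases the removed span begins after base 14 at the upstream end and stops with base 14 at the downstream end.
UBQ10, 56 nt, upstream end (chr4:2719227-2719254, plus strand): gcgtctgcGTGGAGgtatgcagatcttc
UBQ10, 56 nt, downstream end (chr4:2719283-2719310, plus strand): ctttggagGTGGAGagttctgacaccat
UBQ10, 1 unit, upstream end (chr4:2718890-2718917, plus strand): GTATTCCTCCGGACCAGCAGAGgctgat
UBQ10, 1 unit, downstream end (chr4:2719118-2719145, plus strand): GTATTCCTCCGGACCAGCAGAGattgat
The 56-nt span can slide by 6 bases and the whole-unit span by 44, beyond the windows shown. Of the 45 whole-unit spans, 37 (82.2%) can slide by 10 bases or more, with a median of 14 and a maximum of 56, whereas none of the 35 other single spans of the family can (median 3, maximum 8). Ends that lie a whole number of units apart stand in register, where the units are near copies, so the 2 sets of spans are not matched for sequence. In the other nuclear genes 152 of 2676 single spans (5.68%) can slide that far.

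**Figure D4:**
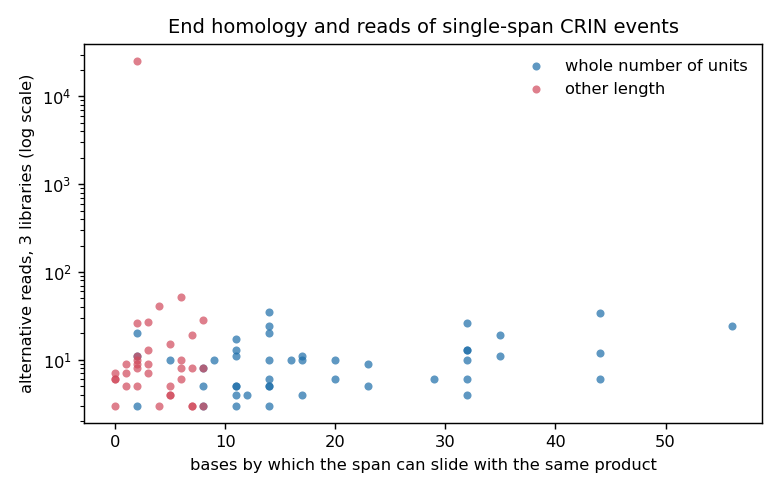
Number of bases by which a removed span can slide with the same product (x axis) and alternative reads summed over the 3 libraries (y axis, log scale), for the 80 single-span CRIN events of the family. Whole-unit spans (blue) reach 56 bases and other spans (red) stop at 8, and the point far above the rest is the leader intron of UBQ14.

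Some listed events are therefore 1 product under several coordinates. The 80 single-span events of the family reduce to 68 distinct products, of which 10 were listed more than once and accounted for 22 events. In UBQ10 the 65 events made 54 products, 29 of them whole-unit. The whole-unit product with the most reads, picked out after its values were seen, was listed 3 times between starts 2718870 and 2718904, can be placed in 45 ways and had 13, 13 and 26 reads in all. That is 52 reads over the 3 libraries, the same as for the 56-nt span. Another, which holds the annotated intron at 2719469, was also listed 3 times and had 15, 8 and 13 reads. As listed, 6 events equal an annotated RefSeq intron, and 11 give the product of one.

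Most whole-unit spans did not run from GT to AG as listed, but most could be placed with GT or GC and AG at their ends. Of the 45 whole-unit spans, 13 ran from GT to AG as listed, and 16 could be placed so by sliding. When GC to AG was accepted too, 32 could. Of the 35 other single spans of the family 4 ran from GT to AG, 2 of them in UBQ14 from the leader donor. In the other nuclear genes 1951 of 2673 single spans (73.0%) did as listed, 1965 could be placed so by sliding, and 2015 could when GC to AG was accepted. These differences were not tested, and a span that slides further has more placements to choose from. Outside the family, CRIN events were most numerous in PRP4 (AT4G38770, which encodes a proline-rich protein) with 87, AT1G67870 with 55 and CAB1 (AT1G29930, a light-harvesting protein) with 43. GT to AG ends were found in 5 of 83, 0 of 55 and 3 of 43 of their single spans, and 32, 37 and 0 of them can slide by 10 bases or more. None of their spans had a whole number of ubiquitin units, while 98.8%, 100% and 51.2% had a length divisible by 3. That share was 73.8% in the polyubiquitin genes and 46.1% in the other nuclear genes as a whole. The commonest length was 90 nt in PRP4 (8 spans), 72 nt in AT1G67870 (20 spans) and 348 nt in CAB1 (6 spans). In AT1G67870 the lengths ran from 72 to 216 nt. Whether such lengths match repeats within these genes was not tested. Their lack of ubiquitin-unit lengths thus does not show that whole-repeat spans are particular to the family.

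UBQ11 and UBQ14 also had whole-unit spans, on few reads, and in UBQ14 they were 2 of 9 CRIN events. In UBQ14 the leading whole-unit span (1279084 to 1279311, GT to AG) had 9, 4 and 22 reads, or 0.0362%, 0.0180% and 0.0470% of gene-wide reads (chi-square adjusted p = 0.468). The bases shared by its ends also stand in the UBQ10 windows just shown.
UBQ14, 1 unit, upstream end (chr4:1279298-1279325, minus strand): CCGGACCAGCAGAGgttgatcttcgctg
UBQ14, 1 unit, downstream end (chr4:1279070-1279097, minus strand): CCGGACCAGCAGAGattgatcttcgccg
Capitals again mark the bases identical at both ends, 14 in this case, and the span slides no further. Another UBQ14 span of 1 unit (1279229 to 1279456) had 4, 1 and 1 reads. Its single spans of other lengths in the coding units, 173 nt (1279139 to 1279311) and 180 nt (1279380 to 1279559), had 3, 1 and 3 and 3, 1 and 2 reads. In UBQ14, 2 events combined the leader intron with a second span of 299 nt (1279181 to 1279479) or 180 nt (1279383 to 1279562) listed together as 1 event. The event with the span at 1279383 had 10, 1 and 6 reads (chi-square adjusted p = 0.0672). In UBQ11 the other whole-unit spans had 2, 5 and 3 reads (2588608 to 2588835), 2, 1 and 1 (2588596 to 2588823), 1, 1 and 4 (2588652 to 2588879) and, over 2 units, 1, 2 and 2 (2588402 to 2588857). Its only span of another length, 140 nt (2588678 to 2588817), had 1, 2 and 4 reads. The 2 spans of UBQ4 (6973515 to 6973681 and 6973517 to 6973683), 2 bases apart and with different products, had 1, 3 and 1 and 4, 1 and 5 reads.

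Other genes of the ubiquitin pathway had only 2 CRIN events, both in UBC9 and neither a whole-unit span. That is too few for a comparison of span lengths with the family. Of 24 such genes in 6 lists, 18 had listed events, 93 in all, of which 8 (8.60%) were called in the homogeneity test, close to the 10.1% of all nuclear events. Of these 8, 6 were highest in replicate 1. Among the ubiquitin-extension genes, which fuse 1 ubiquitin to a ribosomal protein, UBQ1 and UBQ2 had listed events and UBQ5, UBQ6 and UBQ17 had none. The leading UBQ1 event was a retained intron at 1.34%, 0.871% and 1.22%. The RUB fusion genes RUB1 and RUB2, which join ubiquitin to the related modifier RUB, each had a called retained intron, with 4.79%, 2.23% and 2.40% in RUB1 (chi-square adjusted p = 0.00105) and 4.88%, 2.89% and 3.30% in RUB2 (chi-square adjusted p = 0.0293). Of the divergent polyubiquitin genes UBQ8, UBQ9, UBQ12 and UBQ13, only UBQ13 was listed, with 1 retained intron at 100% on 49, 42 and 111 reads. UBQ13 is counted here with the other nuclear genes. Neither activating enzyme, UBA1 or UBA2, and none of the deubiquitinases UBP6, UBP12, UBP13 and UBP14 had a called event.

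The conjugating enzymes, which carry activated ubiquitin, held 48 of the 93 events, in 7 of 7 genes, and 6 of the 8 calls. Their share of called events, 12.5%, was near the 10.1% of all nuclear events. In UBC8 a retained intron between exons 4 and 5 had 1.96%, 0.435% and 0.983% (chi-square adjusted p = 1.68e-07), and a shifted donor between exons 1 and 2 had 4.80%, 2.79% and 3.01% (8.90e-06). Both were highest in replicate 1. UBC9 held the only 2 CRIN events of these lists. The leading one removed 102 nt from exon 1 and reached 23.1%, 22.6% and 21.5% of gene-wide reads (chi-square adjusted p = 0.188). That was far above any coding-region span of the polyubiquitin genes. It was below the leader splice of UBQ14, also entered in exon 1, with 25.1%, 26.8% and 27.8%.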

How the data were processed

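RNA of pooled first true leaves was sequenced in 3 libraries. Per the submitters' processing notes, the tools were CASAVA 1.8.2 and GSNAP and the build was TAIR10. The deposited table holds raw counts of alternative and other reads per event, made by the authors without normalization; the event classifier, read length and strandedness are not stated in the sources used here. Events without an alternative read in some library are absent from it. Levels were computed as 100 times alternative reads over alternative plus other reads. All CRIN events of a gene have 1 total (gene-wide reads), and class codes were read from coordinates. Homogeneity over libraries was tested by chi-square on the whole nuclear table (scipy 1.17.1, Benjamini-Hochberg, threshold 0.05), which is approximate for events with few reads. Summed CRIN reads were tested likewise over genes. Sequences and annotation are TAIR10.1 with RefSeq transcripts; listed leader sites abut its introns. Printed sequences are credited to RefSeq. Named events were all those of other classes than CRIN, in each gene the 5 CRIN events with the most reads, the 3 with the most among whole-unit and among other lengths, the longest, the shortest and the called ones; the few others named were added after their values were seen. The members and lists were chosen with earlier results of these data known. Alternatives were another statistic, a minimum of 10 alternative reads per library, other length and denominator readings and leaving out each library. Intervals cover counting error only.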

Additional observations from a re-analysis of the deposited data

How the results depend on the processing

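The count of called member events was 4 with the likelihood-ratio statistic and 2 to 3 when 1 library was left out (2 without replicate 3). With a minimum of 10 alternative reads per library it was 4 of the 7 member events left (57.1%). At that minimum 4327 of 18254 nuclear events (23.7%) were called. Over all nuclear events the 6336 calls fell to 2042 to 3755 with 1 library left out. Of the 45 whole-unit spans, 0 met that minimum, so depth limits every statement on single spans, and their share of CRIN reads was 0% in that case. Read 1 nt shorter or 1 nt longer, 0 lengths were whole units. Counted once per product, a choice made after seeing the data, 36 remained. Whole-unit spans held 1.98% ± 0.368 of the CRIN reads of the family (1.83 to 2.19% with 1 library left out), because the leader intron of UBQ14 dominates, and 54.2% ± 1.75 without it, also chosen after seeing the data. Summed CRIN levels with 1 library left out were 0.121 to 0.141% in UBQ10, 26.1 to 27.4% in UBQ14, 0.0327 to 0.0453% in UBQ11 and 0.0783 to 0.0956% in UBQ4. The call on the UBQ14 sum was lost without replicate 1 (chi-square adjusted p = 0.156). With that minimum the UBQ10 sum was 0.0175%, and UBQ4 and UBQ11 had no CRIN event left to give a value. Over other reads only, the UBQ14 sum was 36.5%. Among single named events, leaving out a library ended the 4 calls given with the results and made no new one. No pairing of conditions was possible because the libraries form 1 group, and genes paired within libraries were not tested for the reason given with the results.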
